A study of Bos taurus with 18 samples.

Results

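The libraries compared here are 9 of the 18 RNA-seq libraries of a study of cow rumen papillae. They were chosen by depth alone: a library was kept when its summed read counts lay from 15000000 to 25000000. They comprise forage_control 1, 2 and 3, forage_PHY 3 and 4, grain_control 2, 3 and 5, and grain_PHY 3, which gives 5 forage and 4 grain libraries. The study took biopsies from 9 dry Holstein cows with a rumen cannula. Forage libraries come from cows on a diet of 100% forage and grain libraries from cows after a move to a diet with 65% concentrate. By the study's design 5 cows were controls and 4 received a supplement that the labels call PHY. The labels do not expand PHY or say whether it was already given when the forage biopsy was taken, and no library is tied to a cow. Libraries of the same cows were therefore treated as independent, and each p-value measures the spread between the libraries in its own fit. Replicate numbers only name libraries in the order of deposit. The grain libraries include a single PHY library, and treatment entered the model as a covariate.

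Rumen papillae are lined by a stratified squamous epithelium over a core of connective tissue and small blood vessels. The epithelium absorbs the short-chain fatty acids made by rumen microbes and turns part of the butyrate into ketone bodies. A change from forage to grain speeds fermentation and lowers rumen pH, and such changes are known to alter the growth, the barrier and the metabolism of the papillae. The question of the comparison is which genes differed between the diets where the libraries of both diets held like totals of reads.

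The depth of the matched libraries overlapped between diets. Totals ran from 15808999 to 21165222 reads on forage, with a mean of 18980000 ± 2139000 (SD, n = 5). On grain they ran from 15474334 to 23949058, with a mean of 19590000 ± 3638000 (n = 4). Outside the window the 4 forage libraries held 31174477 to 34471682 reads and the 5 grain libraries 3953060 to 12477701, so that diet and depth cannot be told apart there. The 144 genes of olfactory receptors, proteins that serve smell and are silent in most tissues, summed to 22.7 to 65.0 CPM (counts scaled to a common library size, here by total reads) in matched forage libraries and to 32.9 to 76.0 CPM in matched grain libraries. The same sum was 16.3 to 20.9 CPM in the other forage libraries and 42.1 to 345 CPM in the other grain libraries. Only totals were matched. The most abundant gene (ENSBTAG00000043570, without a symbol) took 30.8% to 43.8% of reads on forage and 26.3% to 35.3% on grain, and the next (ENSBTAG00000043567) took 16.3% to 19.7% and 12.6% to 17.7%. The reads left for all other genes were thus not matched. Because totals chose the libraries, these shares of total reads are descriptions and were not tested. All 16 keratinocyte markers were detected and tested. KRT5, the keratin of basal keratinocytes, stood at 2470 to 4910 CPM over the 9 libraries, so the labelled tissue and its epithelial markers match. Single-gene CPM here and below uses library sizes corrected by TMM (edgeR's trimmed mean of M-values).

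**Figure D1:**
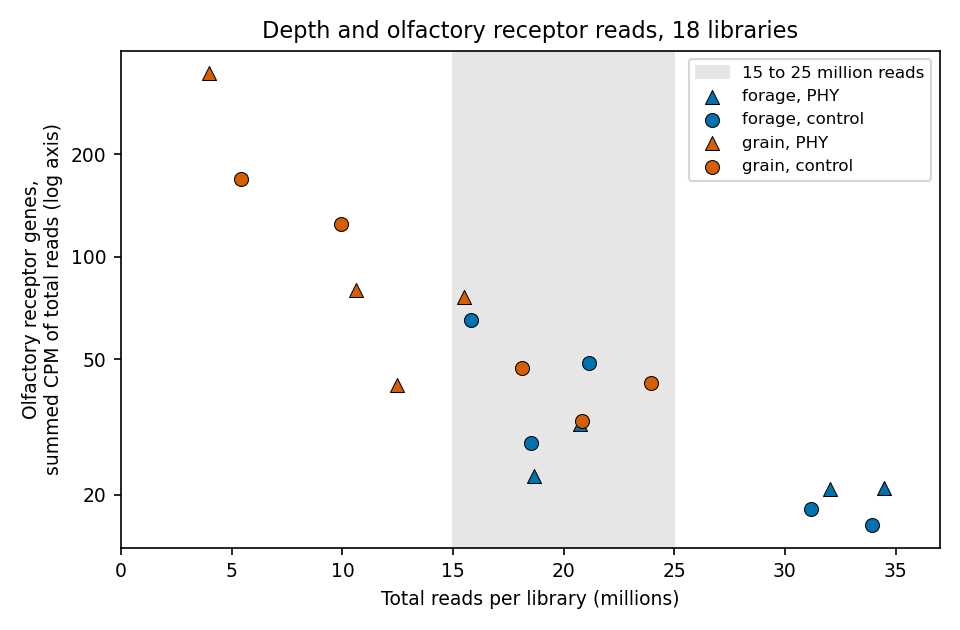
Total reads per library (x axis) against the summed CPM of the 144 olfactory receptor genes (y axis, log scale) in all 18 libraries, with the window of 15000000 to 25000000 reads shaded. Inside the window forage (22.7 to 65.0 CPM) and grain libraries (32.9 to 76.0 CPM) overlap, and outside it they are apart.

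The largest spread among the matched libraries did not follow diet. The first principal component of their log2 CPM held 36.3% of the variance and the next 13.8%. On the first, forage_control 2 and 3 scored 55.9 and 53.9, beside grain_PHY 3 at 53.7 and grain_control 3 at 26.8. At the other end forage_control 1, forage_PHY 3 and forage_PHY 4 scored −56.0, −45.0 and −41.1, beside grain_control 5 at −57.7. Both diets thus had libraries at both ends. Grain_control 2 scored 9.6 on the first component and −70.3 on the next, the lowest score there. The 5 libraries with a positive first score had 42.7 to 76.0 CPM of olfactory receptor reads, and the 4 with a negative score had 22.7 to 32.9 CPM. The part of these reads in single-gene results was not tested beyond a fit with them as a covariate.

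No gene passed the test between the diets. With edgeR's quasi-likelihood test on 18983 genes, 0 genes (0%) had a Benjamini-Hochberg adjusted p under 0.05, the threshold for a call, and the smallest adjusted p was 1. At an unadjusted p under 0.05, 391 genes (2.06%) were higher on grain and 346 (1.82%) were lower, 737 in all, and the smallest unadjusted p was 0.000154. Together these are fewer genes than a threshold of 0.05 gives on average when no gene differs. Limma voom with quality weights also called 0 genes, and DESeq2 called 16. Of these 16, 10 had 0 reads in every forage library and 5 to 9 reads in a single grain library, and edgeR's filter on low counts had removed them. The other 6 were RGS5, SNORA30, SNORA53, SNORD29, U2 (ENSBTAG00000028094) and a gene without a symbol (ENSBTAG00000043555), all with reads in all 9 libraries. The median log2 fold change, grain over forage, was 0.02, the median absolute change 0.21 and the median SE 0.30. Over all tested genes 9997 changes were positive and 8986 negative. The biological coefficient of variation was 35.6%. The CPM ranges of the diets did not overlap for 134 genes that were higher on grain (0.706% of those tested) and 197 that were lower (1.04%). Every adjusted p of a single gene in these 9 libraries was 1 with edgeR, so the values below describe the libraries and no gene is called.

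The genes with the smallest p among those higher on grain included genes of the vessel wall and connective tissue. RGS5, a regulator of G-protein signalling that marks the pericytes around small vessels, stood at 16.2, 20.6 and 19.7 CPM in forage_control 1, 2 and 3 and at 17.9 and 27.1 CPM in forage_PHY 3 and 4. It stood at 59.6, 52.6 and 40.4 CPM in grain_control 2, 3 and 5 and at 25.9 CPM in grain_PHY 3. The 3 grain_control libraries lay above every forage library, while grain_PHY 3 lay within the forage range. The log2 fold change was 1.08 ± 0.24 (SE), with means of 20.3 ± 4.15 CPM (SD, n = 5) and 44.6 ± 14.8 CPM (n = 4). When each library was left out in turn, RGS5 passed only without grain_PHY 3, at 1.45 ± 0.23 (edgeR adjusted p = 0.0416). That fit holds no grain PHY library, and RGS5 did not pass in control libraries alone.

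VCAM1, an adhesion molecule of activated endothelium that binds leukocytes, read 10.3, 6.77, 6.94, 2.48 and 6.29 CPM in the forage libraries and 21.4, 12.5, 13.8 and 12.4 CPM in the grain libraries, in the order given above. The ranges did not overlap (log2 fold change 1.15 ± 0.27). TGFBR2, a receptor chain for the growth factor TGF-beta, read 22.3, 17.1, 14.1, 19.0 and 23.2 CPM on forage and 37.5, 27.5, 32.3 and 26.8 CPM on grain. Its ranges were apart too, at a log2 fold change of 0.71 ± 0.19. COLEC12, a scavenger receptor of vascular cells, stood at 5.69 to 14.4 CPM on forage and 13.8 to 33.6 CPM on grain, ranges that overlapped (log2 fold change 1.10 ± 0.26). KDR, the endothelial receptor for VEGF, averaged 36.3 ± 11.6 CPM in forage libraries and 60.0 ± 24.1 CPM in grain libraries, again with overlap.

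**Figure D2:**
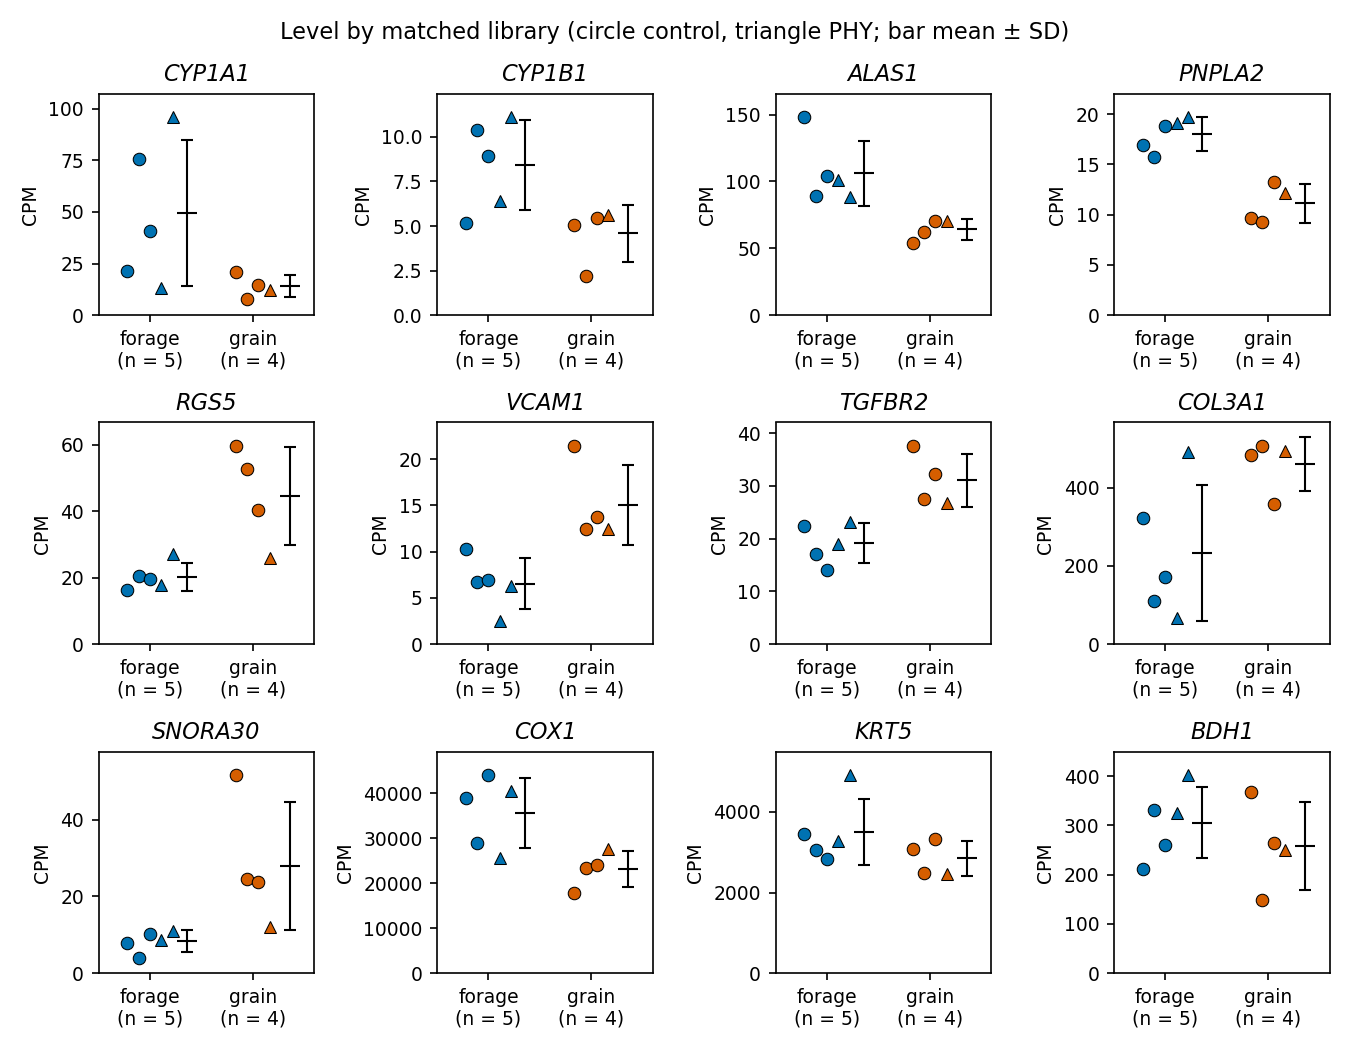
CPM of 12 genes (y axes, from 0) in the 5 forage and 4 grain libraries of the depth window, each point 1 library, with the mean and SD beside it. The ranges of the diets are apart for ALAS1, PNPLA2, VCAM1, TGFBR2 and SNORA30 and overlap for the other 7 genes, and no gene passed the test.

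Marker lists of the papilla core leaned the same way. All 14 fibroblast markers had positive changes, with a median log2 fold change of 0.71 against 0.02 over all tested genes. At an unadjusted p under 0.05, 2 of the 14 were higher, beside 2.06% of all tested genes. The summed level of the 14 markers was 378 to 1630 CPM on forage and 1130 to 1700 CPM on grain, so the diets overlapped. COL3A1, the chain of type III collagen, read 322, 111, 171, 67.5 and 492 CPM on forage and 484, 506, 358 and 494 CPM on grain (log2 fold change 1.06 ± 0.50). Forage_PHY 4 lay within the grain range, and the other 4 forage libraries lay below it. PDGFRA, a growth factor receptor of fibroblasts, averaged 15.9 ± 6.58 CPM on forage (n = 5) and 25.7 ± 8 CPM on grain (n = 4). MMP2, a protease that cuts matrix proteins, averaged 23 ± 12.1 and 43.3 ± 8.67 CPM in the same order. All 9 smooth muscle markers were also positive, at a median of 0.56, with sums of 70.7 to 266 CPM on forage and 128 to 355 CPM on grain. Of these, MYLK, the kinase that starts smooth muscle contraction, had a log2 fold change of 0.72 ± 0.33. SMTN, smoothelin, a cytoskeletal protein named for smooth muscle but not on this list, was lower on grain (−0.65 ± 0.19). The 12 endothelial markers were positive with a median of 0.25, and their sums were 184 to 351 CPM on forage and 263 to 406 CPM on grain. In papillae measured whole, more cells of a type and more RNA per cell cannot be told apart. How much tissue core each biopsy held was not tested.

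Of 7 tested binding proteins for insulin-like growth factors (IGF), 6 had positive changes and 2 had an unadjusted p under 0.05. Those 2 were higher, beside 2.06% of all tested genes at that level. IGFBP7, also made by vessels, read 8.9 to 19.8 CPM on forage and 20.4 to 26.3 CPM on grain, ranges that did not overlap (log2 fold change 0.76 ± 0.24). IGFBP4 averaged 12.4 ± 3.41 CPM on forage (n = 5) and 19.7 ± 4.84 CPM on grain (n = 4), with overlap. IGFBP5 had a change of 0.01 ± 0.28, at 343 ± 109 and 332 ± 135 CPM. Of the 15 genes of the IGF axis, 7 were positive and 8 negative, and the median was −0.10. HBEGF, a growth factor of the epidermal growth factor (EGF) family, went the other way, from 18 ± 9.6 to 10.5 ± 5.4 CPM (log2 fold change −0.89 ± 0.29). ERBB2, a receptor of that family, averaged 81.1 ± 8.34 CPM on forage and 59.4 ± 8.05 CPM on grain. The EGF axis had 9 of 13 genes negative and a median of −0.07.

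Most small non-coding RNA genes were higher on grain, with values that did not pass the test. Small nucleolar RNAs guide the chemical modification of ribosomal and spliceosomal RNA, and their relatives in Cajal bodies do so for spliceosomal RNA. These genes were gathered by symbol as a family after values had been seen, so the counts only describe these libraries. Of the 132 tested genes of this family, 124 had positive changes. At an unadjusted p under 0.05, 44 were higher and 0 lower. Over all tested genes 2.06% were higher and 1.82% lower at that level. The median log2 fold change was 0.73. Their summed CPM was 1320, 636, 1290, 1120 and 1400 on forage and 4240, 2150, 2030 and 1270 on grain. With these TMM-corrected sizes the 3 grain_control libraries lay above every forage library, and grain_PHY 3 lay within the forage range. As CPM of total reads the sums were 730 to 1170 on forage and 1500 to 4830 on grain, and did not overlap. SNORA30, a guide RNA of the H/ACA class, read 7.99, 3.91, 10.2, 8.75 and 11 CPM on forage and 51.6, 24.5, 23.8 and 12.1 CPM on grain. The 2 diets did not overlap (log2 fold change 1.67 ± 0.42). Many of these genes lie inside introns of other genes, and reads of host and guest could be shared, since the counting rule is not given in the sources used here.

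Other short RNAs did likewise. U2 (ENSBTAG00000028094), a copy of the spliceosomal RNA that pairs with the intron's branch point, stood at 1.54 to 3.35 CPM on forage and 4.21 to 12.6 CPM on grain (log2 fold change 1.51 ± 0.34). Y_RNA (ENSBTAG00000043461), a copy of the small RNAs bound by the Ro protein, stood at 19.3 to 43.7 CPM on forage and 50.3 to 102 CPM on grain (1.09 ± 0.25). Near-identical copies of both exist in the table, so their reads could be split between copies. In the wider list of abundant non-coding RNAs, 131 of 155 tested genes were positive, with a median of 0.58, and 22 were higher and 1 lower at an unadjusted p under 0.05. Their summed level overlapped, at 30200 to 51700 CPM on forage and 33100 to 60300 CPM on grain. The highest of all was grain_control 2, in which non-coding genes took 6.86% of total reads against 3.91% to 4.22% in the other 3 grain libraries and 2.96% to 4.31% on forage. Without that library the median of the 155-gene list was 0.27.

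The immune genes that stood out were few and of low level. F13A1, the A subunit of coagulation factor XIII, also made by tissue macrophages, read 1.66, 2.2, 3.11, 1.99 and 2.70 CPM on forage and 5.62, 4.63, 4.09 and 7.49 CPM on grain. All grain libraries lay above all forage libraries (log2 fold change 1.24 ± 0.30). LYZ, the bacteria-digesting enzyme lysozyme, stood at 0.33 to 0.835 CPM on forage and 1.25 to 1.94 CPM on grain. CXCL5, a chemokine that draws neutrophils, stood at 0.22 to 1.8 CPM and 1.86 to 4.7 CPM in the same order, and neither gene overlapped between diets. CXCL8, another such chemokine, overlapped, at 0.616 ± 0.31 CPM on forage (n = 5) and 1.75 ± 0.768 CPM on grain (n = 4), with a log2 fold change of 1.55 ± 0.56. IL1B, a fever-inducing cytokine, ran from 0.835 to 2.29 CPM on forage and from 0.808 to 5.58 CPM on grain (0.68 ± 0.48). Of 39 inflammation genes 30 were positive, at a median of 0.28, and 3 were higher at an unadjusted p under 0.05, beside 2.06% of all tested genes. The myeloid markers had 15 of 19 positive and a median of 0.37, with sums of 53.2 to 74.9 CPM on forage and 69.0 to 91.7 CPM on grain. The T and NK cell markers summed to 43.0 to 67.8 and 49.3 to 67.5 CPM in that order, with a median change of −0.05. B and plasma cell markers had a median of 0.03. GPX3, a secreted peroxidase that removes hydrogen peroxide, stood at 1.33 to 3.08 CPM on forage and 3.12 to 9.2 CPM on grain, just apart (log2 fold change 1.47 ± 0.40). The antioxidant list to which it belongs had 13 positive and 10 negative genes and a median of 0.02.

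Among the named genes that were lower on grain, the detoxification enzyme CYP1A1 had the largest log2 difference. It oxidises foreign compounds and is induced through the aryl hydrocarbon receptor. Its levels were 21.2, 75.5, 40.6, 13.4 and 95.9 CPM on forage and 21.1, 7.97, 14.8 and 12.4 CPM on grain. The forage libraries spread widely, and 2 of the 5 lay near or within the grain range. Means were 49.3 ± 35.4 CPM (n = 5) and 14.1 ± 5.48 CPM (n = 4), a log2 fold change of −1.79 ± 0.64, or 3.46-fold lower. CYP1B1, a related enzyme, read 5.19, 10.4, 8.95, 6.42 and 11.1 CPM on forage and 5.07, 2.21, 5.44 and 5.63 CPM on grain (log2 fold change −0.85 ± 0.30). Forage_control 1 was the forage library within the grain range for CYP1B1, and it was among the low ones for CYP1A1 as well. The receptor AHR itself averaged 19.6 ± 3.11 CPM on forage and 21.3 ± 5.32 CPM on grain. Among other targets, NQO1, a quinone-reducing enzyme, and TIPARP, an enzyme that damps the receptor, had changes of −0.05 ± 0.39 and −0.04 ± 0.30. ALDH3A1, an aldehyde-oxidising enzyme of low level, had a positive change of 1.16 ± 0.74, from 0.391 ± 0.301 to 0.891 ± 0.173 CPM. Of 16 tested genes of the receptor's list 10 were negative and 6 positive, with a median of −0.05 and a range from −1.79 to 1.16.

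ALAS1 and PNPLA2 were among the 10 named lower genes with the smallest p. ALAS1, which catalyses the rate-limiting step of heme synthesis, read 148, 88.9, 104, 101 and 88.7 CPM on forage and 54.0, 62.5, 70.3 and 70.7 CPM on grain. All grain libraries lay below all forage libraries (log2 fold change −0.73 ± 0.20). PNPLA2, the lipase that starts the breakdown of stored triglyceride, read 16.9, 15.7, 18.8, 19.1 and 19.7 CPM on forage and 9.69, 9.30, 13.3 and 12.2 CPM on grain. It was also without overlap (−0.67 ± 0.18). PLIN2, a coat protein of lipid droplets, averaged 73.6 ± 12.9 CPM on forage and 56.0 ± 11.7 CPM on grain, with overlap (−0.42 ± 0.20). Fatty acid oxidation genes had a median of −0.11, with 23 of 30 negative. Those of fatty acid synthesis had a median of −0.13, with 13 of 17 negative, and those of cholesterol synthesis −0.16, with 17 of 23 negative. Each of these 3 lists had a single gene at an unadjusted p under 0.05, lower on grain, beside 1.82% of all tested genes.

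The rest of the lower genes had varied roles. CDHR4, a cadherin-related membrane protein, stood at 34.2 to 45.2 CPM on forage and 20 to 27.9 CPM on grain (log2 fold change −0.63 ± 0.17). SMTN, smoothelin, a protein of the actin cytoskeleton, stood at 137 to 174 CPM and 79.0 to 129 CPM in the same order. BICRA, a subunit of a SWI/SNF chromatin remodeller, CRTC3, a coactivator of the transcription factor CREB, and GTPBP1, a GTP-binding protein, had changes of −0.65 ± 0.19, −0.67 ± 0.20 and −0.59 ± 0.17. The diets were apart for all of these. They overlapped for SLC25A25, a mitochondrial carrier of ATP-Mg and phosphate (−0.79 ± 0.23). The precursor gene of the microRNA bta-mir-193a stood at 5.52 to 7.39 CPM on forage and 2.66 to 4.47 CPM on grain (−0.90 ± 0.25), which says nothing of the mature miRNA. FPGT, an enzyme of fucose salvage, was higher instead (0.95 ± 0.25), with overlapping ranges.

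POLD1, the catalytic subunit of DNA polymerase delta, stood at 19.6 to 29.2 CPM on forage and 14.0 to 16.9 CPM on grain and did not overlap (log2 fold change −0.63 ± 0.18). MCM5, part of the helicase that opens DNA at replication, averaged 38.3 ± 6.6 and 26.7 ± 6.37 CPM. UHRF1, which keeps DNA methylation through replication, averaged 78.3 ± 10.6 and 56.7 ± 7.78 CPM. MCM5 and UHRF1 were the 2 of 39 cell division genes with an unadjusted p under 0.05, beside 1.82% of all tested genes lower at that level. POLD1 is not among the 39. The 39 genes had a median of −0.05, with 24 negative and 15 positive.

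Most clock genes had negative changes. CRY2, a repressor of the circadian clock, averaged 17.1 ± 3.21 CPM on forage (n = 5) and 11 ± 2.29 CPM on grain (n = 4), a log2 fold change of −0.62 ± 0.20. DBP, a clock output factor, averaged 11.5 ± 3.96 and 6.54 ± 2.64 CPM (−0.82 ± 0.30). NR1D1, a repressor that links the clock to metabolism, had a change of −0.41 ± 0.22. All 3 overlapped between diets. The list had 12 of 17 genes negative and a median of −0.28. In a narrower window of 17000000 to 23000000 reads that median was 0.04. The labels used here give no time of day for the biopsies.

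Mitochondrially encoded messages were lower on grain in all 13 genes, while nuclear genes of the same machinery had a median near 0. COX1, a core subunit of cytochrome c oxidase, read 38900, 29000, 44000, 25700 and 40400 CPM on forage and 17900, 23300, 24000 and 27600 CPM on grain. Only grain_PHY 3 lay within the forage range (log2 fold change −0.61 ± 0.26). COX3, another subunit, averaged 3480 ± 469 and 2440 ± 427 CPM, and CYTB, of complex III, 7910 ± 1520 and 5560 ± 903 CPM. The median of the 13 genes was −0.40, and 2 had an unadjusted p under 0.05, beside 1.82% of all tested genes lower at that level. The 13 genes summed to 51400 to 81800 CPM on forage and 36800 to 53900 CPM on grain, with overlap. As a share of all reads the 13 genes took 5.10% to 6.49% on forage and 4.18% to 6.37% on grain, so the gap was smaller in total reads than after TMM, whose factors were 0.777 to 1.15 on forage and 1.08 to 1.19 on grain. The 52 nuclear genes of the respiratory chain had a median of −0.05, and 0 of them had an unadjusted p under 0.05. NDUFS7, of complex I, averaged 26.1 ± 5.62 and 21.4 ± 5.59 CPM.

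The epithelium's own lists had medians between −0.20 and 0.15. Genes of the basal layer had a median of −0.20, with 12 of 14 negative. ITGB4, the integrin chain that anchors basal cells, averaged 400 ± 42.3 CPM on forage (n = 5) and 294 ± 49.3 CPM on grain (n = 4), a log2 fold change of −0.42 ± 0.20. KRT5 had a change of −0.26 ± 0.24. Of 22 differentiation regulators 20 were negative, at a median of −0.20, and 0 had an unadjusted p under 0.05. Among them ZNF750, a transcription factor of keratinocyte differentiation, averaged 30.9 ± 7.12 and 23.6 ± 3.93 CPM. PPARD, a fatty acid sensor of keratinocytes, had a change of −0.41 ± 0.22 and LYPD3, a surface protein of stratified epithelium, of −0.54 ± 0.28. The 39 upper-layer genes had a median of 0.15, with 27 positive, and 0 of them had an unadjusted p under 0.05. CRNN, a protein of the upper layers, averaged 2.96 ± 1.31 and 4.11 ± 1.05 CPM. Desmosome genes had a median of 0.05.

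The 31 junction genes had a median of −0.01, with 15 positive and 16 negative. OCLN and CLDN1, membrane proteins that seal neighbouring cells, had changes of −0.08 ± 0.22 and −0.04 ± 0.40. TJP3 and CGN, adaptors on the inner side of the junction, were lower, at −0.56 ± 0.21 and −0.44 ± 0.21. TJP3 read 49.0, 32.2, 54.3, 48.8 and 50.5 CPM on forage and 27.9, 45.2, 30.2 and 25.6 CPM on grain. Forage_control 2 and grain_control 3 crossed into the other diet's range.

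Transport and ketone formation also had medians near 0. SLC9A3, a sodium-proton exchanger, averaged 17.2 ± 7.79 CPM on forage (n = 5) and 24.6 ± 4.48 CPM on grain (n = 4), with overlap (log2 fold change 0.66 ± 0.26). SLC4A9, an anion exchanger, was lower (−0.41 ± 0.17). KCNK5, an acid-sensitive potassium channel, stood at 80.4 to 96.8 CPM on forage and 61.2 to 80.2 CPM on grain, just apart (−0.35 ± 0.17). The 51 genes of acid and ion transport had a median of 0.05, with 30 positive. SLC16A1, the main carrier of ketone bodies and short-chain fatty acids in this tissue, averaged 770 ± 113 and 793 ± 171 CPM (0.05 ± 0.22). BDH1, which makes beta-hydroxybutyrate, had a change of −0.19 ± 0.25. The 22 genes of ketone formation had a median of −0.07. CA1, a carbonic anhydrase, read 101, 6.39, 116, 4.62 and 4.81 CPM on forage and 6.86, 110, 7.30 and 5.74 CPM on grain. It was thus over 100 CPM in 3 libraries, 2 forage and 1 grain, and under 8 CPM in the other 6, with a diet change of −0.53 ± 1.18. Without grain_control 3 the change was −1.98. In stress response, the chaperones of the endoplasmic reticulum HSPA5 and SDF2L1 were higher on grain (0.62 ± 0.24 and 0.74 ± 0.29), in a list of 23 with a median of 0.10.

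**Figure D3:**
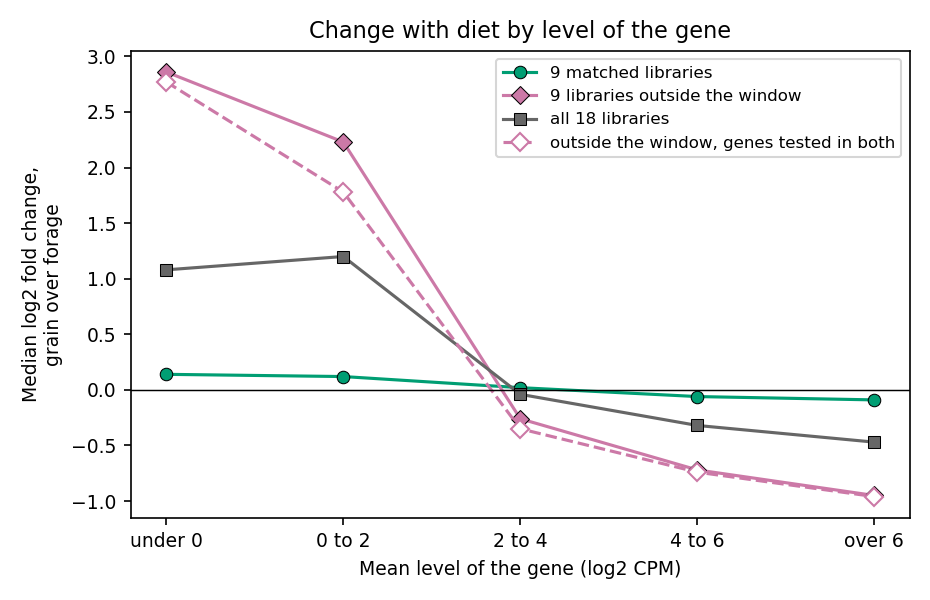
Median log2 fold change, grain over forage, of tested genes (y axis) in 5 bins of mean log2 CPM (x axis) in the matched libraries, the libraries outside the window and all 18. The dashed line gives the change outside for the genes tested in both sets, binned by matched level. The matched medians stay between −0.09 and 0.14, and those outside run from 2.86 in the lowest bin to −0.95 in the highest.

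How far the matched libraries differed from the rest was tested directly, with the diet change inside the window minus that outside as the tested quantity. Outside the window edgeR called 8331 of 22202 genes higher on grain (37.5%) and 6136 lower (27.6%). The difference of the 2 diet changes passed the test for 7578 genes, 2691 with a higher value in the matched libraries (12.1%) and 4887 with a lower one (22%). Over the 18983 genes tested in both, the median absolute log2 change was 0.21 in matched libraries and 0.87 outside, and 58.9% had the same sign. Pearson's r of the changes was 0.17 and Spearman's rho 0.20, across genes that are not independent replicates. Of 6640 genes of this set with a called difference, 6569 (98.9%) had the smaller absolute change in the matched libraries. These genes were selected for a large gap between the 2 changes. With larger changes outside, the share was thus largely fixed by that selection and is not a separate result. Depth, olfactory receptor reads and membership of the window move together here, and their parts in the difference cannot be told apart. With a narrower window of 17000000 to 23000000 reads, which keeps 4 forage and 2 grain libraries, 0 differences were called by edgeR and 4367 had an unadjusted p under 0.05. The count also fell by over 1.5 times without forage_control 2 (5047), forage_control 3 (4929), grain_control 1 (4987) or grain_control 5 (4596).

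The median change varied more with a gene's level outside the window than inside it. In the matched libraries the median log2 change was 0.14 for genes under 0 log2 CPM, 0.12 from 0 to 2, 0.02 from 2 to 4, −0.06 from 4 to 6 and −0.09 over 6. Outside the medians of these bins were 2.86, 2.23, −0.26, −0.72 and −0.95. The bins hold different genes in the 2 fits, such as 2616 and 4708 under 0 log2 CPM, because more low-count genes pass the filter when the shallow grain libraries are included. Over the 18983 genes tested in both, binned by their matched level, the medians outside were 2.77, 1.78, −0.35, −0.74 and −0.96. Genes that are silent in most tissues had a median of 0.05 in matched libraries and 2.80 outside. The difference passed the test as lower for 25 of the 42 of them that were tested, against 22% over all genes. By total reads, this list summed to 128 to 751 CPM in grain libraries outside the window and 122 to 212 CPM in matched ones. The window thus set aside the grain libraries with most such reads, and the count is not independent of how the libraries were chosen.

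**Figure D4:**
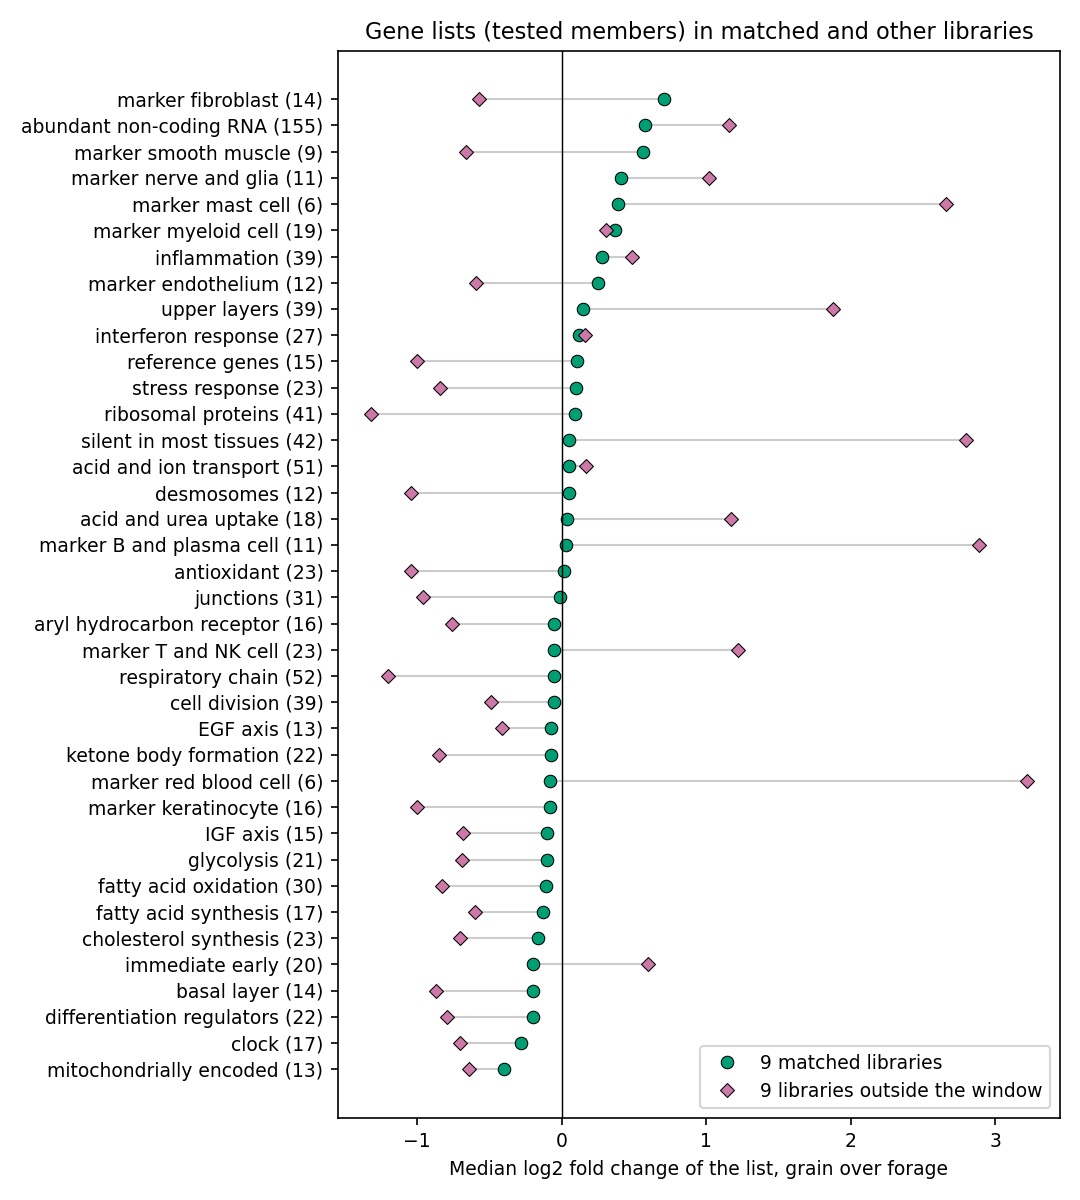
Median log2 fold change, grain over forage (x axis), of 38 gene lists (y axis, number of genes tested in the matched libraries in brackets) in the 9 matched libraries and the 9 others. The matched medians lie between −0.40 (mitochondrially encoded) and 0.71 (fibroblast markers), and the medians outside lie between −1.32 and 3.22.

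Several lists with large median changes outside the window had smaller ones within it. All 41 ribosomal protein genes were called lower outside, at a median of −1.32, and had a median of 0.09 in matched libraries, and the difference passed the test as higher for all 41, beside 12.1% of all genes. The respiratory chain had a median of −1.20 outside, with all 52 genes called lower, and the difference passed as higher for 41 of the 52. Over all tested genes 27.6% were called lower outside, but the share rose with level. It was 3237 of 4285 genes at 4 to 6 log2 CPM and 1170 of 1312 over 6. The share for the difference covers genes of all levels and was not taken by level. Tight junction genes had a median of −0.96 outside and a called higher difference for 9 of 31, beside the same 12.1%. For red blood cell markers the median was 3.22 outside and −0.08 inside, and for B and plasma cell markers 2.89 and 0.03. Without grain_PHY 3 the medians inside were −0.62 and −0.37. The core lists had medians of opposite sign, from −0.57 outside to 0.71 inside for fibroblast markers, with a called higher difference for 3 of 14, a share not far from the 12.1% of all genes. For endothelial markers the medians were −0.59 and 0.25, with a called higher difference for 6 of 12. For smooth muscle they were −0.66 and 0.56, and the difference passed for 0 of 9 with edgeR.

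Among single genes, RGS5 and TGFBR2 had opposite changes in the 2 sets. RGS5 was at 1.08 ± 0.24 in matched libraries and −1.03 ± 0.27 outside, a difference of 2.12 ± 0.39 (edgeR adjusted p = 0.00115). TGFBR2 was at 0.71 ± 0.19 and −0.84 ± 0.19, a difference of 1.53 ± 0.28 (edgeR adjusted p = 0.000983). KDR, IGFBP4, HSPA5, COLEC12, IGFBP7, GPX3, SDF2L1 and FPGT were also positive in matched libraries and negative outside, each with a called difference. Outside, KDR was at −0.79 ± 0.26, IGFBP4 at −0.68 ± 0.23 and HSPA5 at −0.64 ± 0.28. The edgeR adjusted p of their differences was 0.00678, 0.00496 and 0.0214. VCAM1 was positive outside too (0.15 ± 0.30). The 3 largest called differences with a higher value in the matched libraries, among genes with a symbol at 5 CPM or more, were those of A2M, a protease inhibitor, PRSS23, a serine protease, and MMP2, at 2.26 ± 0.59, 2.21 ± 0.64 and 2.16 ± 0.73. On the other side stood the muscle myosins MYH4 and MYH8 and DNAH11, a dynein of cilia. MYH4 was at −0.25 ± 0.33 in matched libraries and at 3.56 ± 0.40 outside (difference −3.81 ± 0.53, edgeR adjusted p = 0.000296). KCNJ5, a potassium channel, was at 0.86 ± 0.47 inside and 4.09 ± 0.58 outside (difference edgeR adjusted p = 0.00337). Without grain_PHY 3 its change inside was 0.14. OCLN was at −0.08 ± 0.22 inside and −1.19 ± 0.24 outside, and the difference of 1.09 ± 0.35 passed (edgeR adjusted p = 0.0205). For ZNF750 the difference was 1.47 ± 0.37 (edgeR adjusted p = 0.00592).

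**Figure D5:**
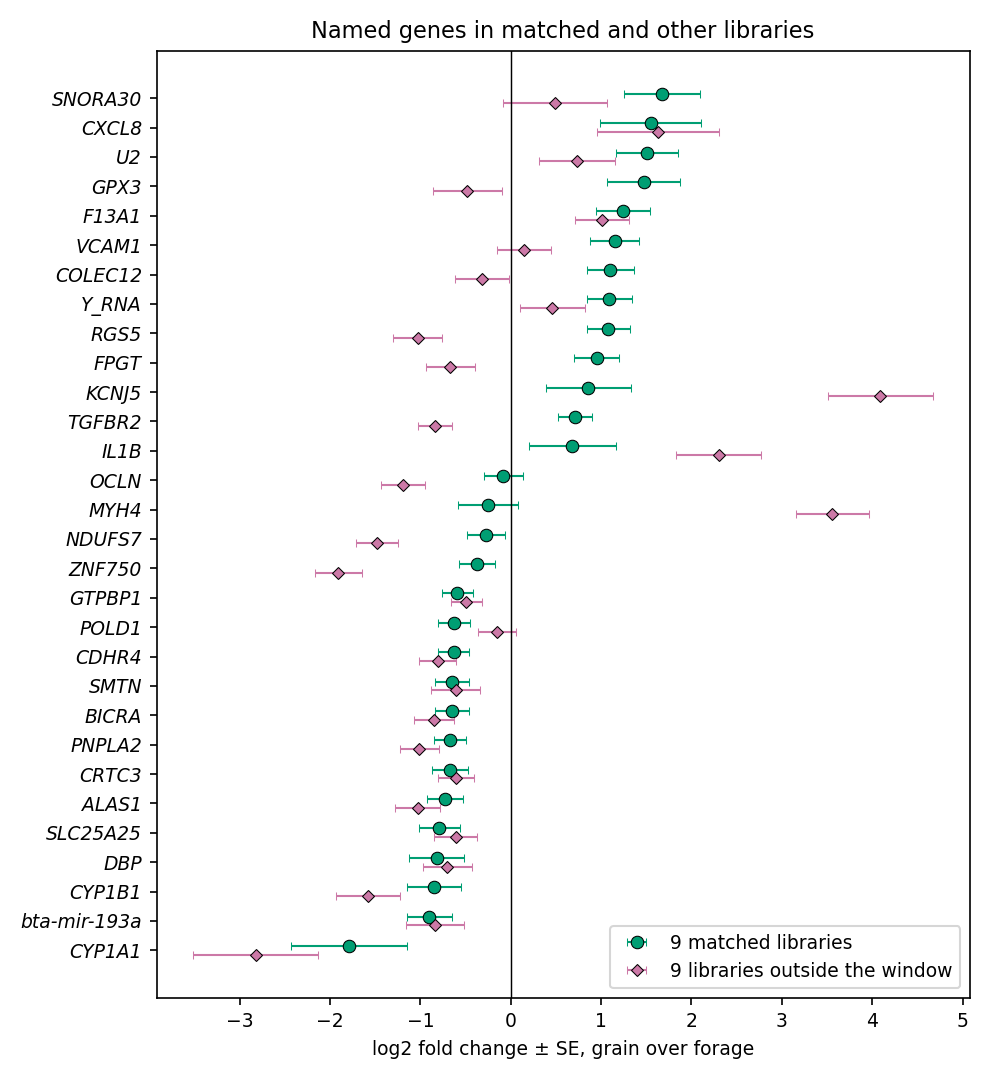
Log2 fold change with its SE, grain over forage (x axis), of 30 named genes (y axis) in the 9 matched libraries and the 9 libraries outside the window. CYP1A1, ALAS1 and PNPLA2 lie to the left of 0 in both sets, and RGS5, TGFBR2 and FPGT lie on opposite sides.

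Other genes had changes of the same sign in both sets. CYP1A1 was at −1.79 ± 0.64 in matched libraries and −2.82 ± 0.69 outside, where it passed the test (edgeR adjusted p = 0.00343), and the difference of 0.91 ± 0.96 did not (edgeR adjusted p = 0.455). CYP1B1 was at −0.85 ± 0.30 and −1.58 ± 0.35 (difference edgeR adjusted p = 0.244). ALAS1 was at −0.73 ± 0.20 and −1.03 ± 0.25, and PNPLA2 at −0.67 ± 0.18 and −1.01 ± 0.22, with differences of 0.30 ± 0.36 and 0.34 ± 0.31 that did not pass. CDHR4, CRTC3, BICRA and GTPBP1 were lower in both sets and passed the test outside, with edgeR adjusted p of 0.00234, 0.0116, 0.00173 and 0.0144. Such calls were common outside, where edgeR called 27.6% of all tested genes lower and 37.5% higher. Of the genes at 4 to 6 log2 CPM there, 3237 of 4285 were called lower, and of those over 6, 1170 of 1312. DBP was at −0.82 ± 0.30 and −0.70 ± 0.27. F13A1 was at 1.24 ± 0.30 and 1.01 ± 0.30, higher on grain in both (edgeR adjusted p outside 0.00537). CXCL8 was at 1.55 ± 0.56 and 1.63 ± 0.68. A difference that misses the threshold does not show that the 2 sets are alike. Over all 18 libraries, which include the matched ones, the changes of CYP1A1, ALAS1, PNPLA2 and F13A1 were −2.28 ± 0.40, −0.82 ± 0.17, −0.77 ± 0.14 and 1.23 ± 0.22, each with an edgeR adjusted p of 0.0237. That is the smallest adjusted p of this fit, shared by many genes, and the fit called 5538 of 18396 genes. It also holds the libraries in which diet and depth cannot be told apart. The changes of RGS5 and TGFBR2 in this fit were 0.06 ± 0.29 and 0.00 ± 0.19.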

How the data were processed

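RNA of rumen papillae was measured by total RNA sequencing. Per the labels' protocols, 10 ng of RNA went into each library, made with a SMART-Seq kit that keeps the strand. The authors deposited whole-number read counts for 27270 Ensembl genes. They also deposited a DESeq2-normalized signal, which equals those counts divided by 1 size factor per library (checked to a tolerance of 0.001) and was not used for tests. Per the submitters' processing notes, bcl2fastq 2.20, DESeq2 (version not stated) and the build bosTau9 were used. Which aligner, counter, annotation and strand setting served is not given in the sources used here, so overlapping, antisense and near-identical genes could share reads. Symbols are as the deposited table pairs them with identifiers.

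The matched libraries held 15474334 to 23949058 counts, and no pair of libraries was identical. They were fitted with edgeR 4.0.16 (R 4.3.3): filterByExpr by diet, TMM, robust quasi-likelihood F test, treatment as covariate, 6 residual degrees of freedom, Benjamini-Hochberg adjustment over all tested genes. The change outside the window and the difference came from one model of all 18 libraries with diet, window, their interaction and treatment. The fit of the matched libraries was first tried on simulated counts with larger changes than those described here and one fixed spread. That trial does not show how well the fit finds changes of the size described. SE is the log2 change divided by the root of F.

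Named genes were, by rule, the called genes with a symbol and at least 5 CPM in the higher diet, 10 in each direction, filled up by the smallest unadjusted p. To these came 3 in each direction for the difference, 37 preset genes and up to 4 per list by p. Not all of them are printed, and one is not reported here. ENSBTAG00000043555 and the genes named because an alternative called them fall outside this rule and were chosen after their values were seen. The family of small nucleolar and Cajal body RNA genes was also gathered after values were seen. The members, the 38 lists and the preset genes were chosen with earlier results of these data known. Alternatives were DESeq2's size factors, other filters, DESeq2 1.42.0, limma 3.58.1 voom, other windows, thinning, other covariates and leaving out each library. Precision is limited by the number of libraries.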

Additional observations from a re-analysis of the deposited data

Results flagged for a closer look

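Single libraries that lay far from the others of their diet were looked for in 178 sets of matched values (a gene or a read share within a diet), and 10 were found. Chance gives about 1 in 20. Grain_control 2 stood out with A2M at 55.9 CPM against 18 to 22.5 in the other grain libraries, with VCAM1 at 21.4 CPM against 12.4 to 13.8, and with non-coding genes at 6.86% of reads against 3.91% to 4.22%. In grain_control 3, CA1 was at 110 CPM against 5.74 to 7.30 and CYP1B1 at 2.21 CPM against 5.07 to 5.63. COL3A1 was lowest in grain_control 5, at 358 CPM against 484 to 506. Among forage libraries, forage_control 1 had ALAS1 at 148 CPM against 88.7 to 104. Forage_control 2 was low for CGN (64.8 CPM against 98.1 to 111), TJP3 (32.2 against 48.8 to 54.3) and CXCL5 (0.22 against 1.34 to 1.8).

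The diet change differed between the matched libraries and those outside the window for 7578 genes by edgeR's test of the difference. On the log2 scale, matched minus outside, it was −3.81 for MYH4, −3.71 for DNAH11, −3.61 for MYH8, 2.26 for A2M, 2.21 for PRSS23 and 2.16 for MMP2. The edgeR adjusted p of these 6 was 0.000296, 0.00247, 0.00141, 0.0114, 0.0182 and 0.0363.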

How the results depend on the processing

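The count of 0 called genes in matched libraries held with DESeq2's size factors, without a filter on low counts, with a stricter one, with limma voom, without the treatment covariate, after thinning to the lowest total, in windows of 10000000 to 30000000 and 17000000 to 23000000 reads, and against a minimum log2 change of 1. It also held in the 2 fits of these libraries chosen after seeing the data, without the 2 most abundant genes and on genes with a symbol without small RNA genes. It was 16 with DESeq2, 5 with log2 olfactory receptor CPM as a covariate (SNORA53, SNORA74, Y_RNA (ENSBTAG00000043461), SNORD97 and PLPP1, all higher), 1 in control libraries only (SNORA53) and 5538 over all 18 libraries. Leaving out 1 library in turn gave 0 to 5 genes. The 5 came without grain_PHY 3 and were SNORA53, RGS5, C7H5orf46, SNORD97 and U1 (ENSBTAG00000055182), and the cause was not tested. The 7578 called differences became 11596 with the wider window (5 forage and 6 grain libraries) and 0 with the narrower one (4 and 2), where 4367 had an unadjusted p under 0.05 with edgeR. They ran from 4596 to 9854 when 1 library was left out, and were 5047, 4929, 4987 and 4596 without forage_control 2, forage_control 3, grain_control 1 and grain_control 5.

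No paired analysis was possible because the labels give no shared replicate numbers and tie no library to a cow. Some changes turned sign, and the cause was not tested. Over all 18 libraries this held for AHR (−0.26), DNAH11 (1.42), IGFBP5 (−0.52), MMP2 (−0.18), MYH4 (1.59), PRSS23 (−0.47), SLC16A1 (−0.32) and SLC9A3 (−0.29). With the olfactory receptor covariate it held for CLDN1 (0.21), MYH8 (−0.24), NQO1 (0.11), OCLN (0.05) and TIPARP (0.19), in control libraries for CLDN1 (0.43), MYH8 (−0.39), NQO1 (0.26), OCLN (0.24) and TIPARP (0.25), and in the narrower window for CLDN1 (0.32), MYH8 (−0.16), NQO1 (0.11), OCLN (0.17), SLC16A1 (−0.03) and TIPARP (0.29). MYH4 was 0.07 in the wider window, SLC16A1 −0.09 there and with voom, and TIPARP 0.09 without the treatment covariate. IGFBP5 was −0.04 without that covariate, −0.06 with the olfactory receptor covariate and in the wider window, −0.03 in the narrower window and −0.05 with voom. Leaving out single libraries gave −0.05 to 0.22 for AHR, −0.26 to 0.44 for CLDN1, −0.84 to 0.06 for DNAH11, −0.29 to 0.29 for IGFBP5, −0.64 to 0.10 for MYH4, −0.38 to 0.32 for MYH8, −0.28 to 0.28 for NQO1, −0.20 to 0.25 for OCLN, −0.05 to 0.21 for SLC16A1 and −0.44 to 0.26 for TIPARP. Of the 74 genes examined, 64 kept their direction in all of these fits other than that of all 18 libraries. List medians moved by more than the spread in the narrower window for the basal layer (−0.05), inflammation (0.17), the clock (0.04), non-coding RNA (0.13, and 0.27 without a filter) and mast cell markers (−0.09). Without grain_PHY 3 they were −0.03 for differentiation regulators, −0.31 for genes silent in most tissues, −0.62 for red blood cell, −0.37 for B and plasma cell, 0.05 for mast cell and 0.02 for nerve and glia markers. The level bins outside the window had medians of 2.77, 1.78, −0.35, −0.74 and −0.96 over the genes tested in both sets, an alternative also chosen after seeing the data. Fibroblast markers kept a median of 0.54 to 1.04 and mitochondrially encoded genes of −0.48 to −0.30 when 1 library was left out. The precision, a median SE of 0.30, is that of 9 libraries, of which 1 is a grain PHY library.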
